A study of Mus musculus with 9 samples.

Results

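The comparison described here sets the livers of mice on a high-fat diet that contained Astragalus polysaccharides (HFD+APS) against the livers of mice on chow, and asks what differed from chow in animals that ate fat together with APS. Its members are 6 of the 9 arrays of the study, 3 labelled as APS treatment and 3 labelled as control, chosen by their titles alone. All mice were male C57bl/6J, 16 weeks old, and had eaten their diet for 12 weeks. The chow group ate standard food without APS. The high-fat diet (HFD) carried 60 kcal% fat, and the HFD+APS group ate that same diet with 40 g of APS per kg. APS are plant carbohydrates from the root of Astragalus, a plant of Chinese medicine. A group of 3 livers on the high-fat diet without APS was measured on the same array type and is used here for reference levels. No group received APS on chow, so the comparison joins the fat and the APS in 1 contrast. The livers were whole tissue, picked from 24 mice by HE staining and triglyceride, with 1 array for each, and p-values measure the spread between these picked livers only.

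Fat feeding in mice loads hepatocytes with triglyceride, which is stored in lipid droplets under coat proteins of the perilipin and Cide families. Hepatocytes also carry cytochrome P450 and sulfotransferase enzymes for steroids and foreign compounds, many of them under the control of the receptors CAR and PXR and of the sex-specific pattern of growth hormone. Cytosolic chaperones of the Hsp70 family refold damaged proteins, and their inducible members answer heat and other stresses through the transcription factor HSF1.

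Every array held 45018 spots, 1639 of them controls. Arrays were scaled to the 75th percentile of their processed signal, which ranged from 214 to 273. All 3 chow arrays shared a slide that held no other group. HFD+APS 1 shared its slide with the 3 HFD arrays, while numbers 2 and 3 of that group had a slide to themselves, so slide and diet cannot be told apart in this comparison. Between 61.5% and 68.4% of the spots of a chow array were well above background, beside 54.1% on HFD+APS 1 and 63.5% and 64.5% on HFD+APS 2 and HFD+APS 3. Negative control spots read 49.5 to 50.2 on the chow arrays, 64.5 on HFD+APS 1, and 44.7 and 47.1 on the other HFD+APS arrays. Hepatocyte markers were measured for 17 of 18 listed genes and 0 of them passed the test (limma, 4 at an unadjusted p under 0.05). Their summed signal was 12.02 to 12.11 on the chow arrays and 11.83 to 12.19 on the HFD+APS arrays (log2).

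Levels below are log2 signals relative to each array's 75th percentile, and differences are log2 HFD+APS minus chow ± SE from 1 limma fit over all 9 arrays. Of 17415 features, 194 rose (1.11%) and 549 fell (3.15%) in HFD+APS against chow when Benjamini-Hochberg adjusted p-values of the whole table were held under 0.05. For HFD against chow, which shares the chow arrays, 750 features rose (4.31%) and 1189 fell (6.83%). In HFD+APS against HFD, 229 features passed (1.31%). All 743 called features (4.27%) had chow and HFD+APS arrays that did not overlap, against 5418 of 17411 features in all (31.1%). An unadjusted p under 0.05 was met by 4413 features (25.3%), the share to set beside the counts at that level given for lists below. Differences were positive in 45.3% of all features. That share, and the shares called in each comparison, are to be set beside the other counts given for lists. Changes of more than 1 on the log2 scale numbered 41 among the rises and 278 among the falls. In whole liver, fewer cells of a type and less RNA per cell cannot be told apart. With slide as a random block, 28 features rose and 155 fell. Because the chow slide held no other group, this block cannot take out a slide difference between chow and HFD+APS. A call kept or lost under it, here and below, is therefore no check on slide. With another background correction (normexp), 292 rose and 393 fell.

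Falls lay mostly among dim probes. When the features were ordered by their mean signal over the 9 arrays and split into 4 bins of equal size, the dimmest bin held 16 rises and 232 falls, and the brightest held 50 rises and 52 falls. The bins between them held 51 rises with 181 falls and 77 rises with 84 falls. The median difference was -0.234 in the dimmest bin and 0.032 in the brightest, beside -0.0379 over all features. In the dimmest bin the median was -0.162 for HFD+APS 1 and -0.28 for HFD+APS 2 and 3. Of the 549 falls, 88 were of probes well above background on no HFD+APS array, and 2 of the 194 rises were of probes well above background on no chow array. Such features passed the filter only through the group where they were high and had to differ, so their calls are not read as results. Without them 192 rises and 461 falls were left. A feature well above background on all 3 arrays of its higher group passed whatever the other group read, so some of this selection remains. Among the genes named below, Mmd2, Lypd6, Ugt1a9, Cyp2b19 and Sult3a1 were well above background on only 1 or 2 arrays of their lower group. Their p-values carry this limit. Clone-like or unmatched names made up 210 of the falls, which is 5.13% of the 4093 such features tested, and olfactory or vomeronasal receptor genes made up 31, which is 18.3% of the 169 tested, both beside 3.15% of all features. The part of background signal in the dim falls was not tested.

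**Figure D1:**
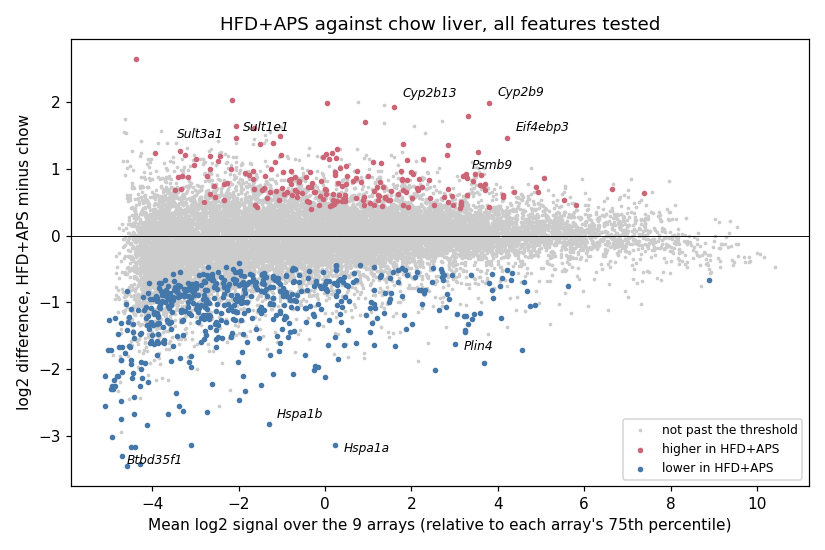
Log2 difference of HFD+APS minus chow (vertical axis) against the mean log2 signal over the 9 arrays (horizontal axis), 1 point for each of 17415 features, with the 194 rises in red and the 549 falls in blue. The falls crowd toward the dim end, where the dimmest of 4 bins holds 232 of them, and Hspa1a and Hspa1b lie apart at differences of -3.15 and -2.83.

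Probes named for the inducible Hsp70 genes Hspa1a and Hspa1b had the largest falls among the listed genes of this study. The genes are neighbours on chromosome 17 and code for nearly the same stress-induced chaperone. Of 27 heat shock proteins and cochaperones measured, Hspa1a, Hspa1b, Dnajb1 and Dnajb4 fell, beside 3.15% of all features, and 0 rose. The list was drawn up for cytosolic proteins but also holds the mitochondrial chaperonins Hspd1 and Hspe1. Both Hspa1b probes are annotated to Hspa1a as well, so the fall under the name Hspa1b is not separate from that of Hspa1a. The differences were negative in 23 of the 27, beside 9531 of all 17415 features. Their median was -0.391, beside -0.0379 over all features. The bases before the starts of Hspa1a and Hspa1b are shown because probes under both names fell and because the genes carry the same heat shock motif (RefSeq, GRCm38.p6, minus strand, 250 bases upstream at chr17:34972157-34972406 and chr17:34959239-34959488). Capitals mark the match to GAANNTTC, which was searched together with TTCNNGAA. Each of these motifs reads the same on both strands, and the matches overlap no other motif searched.
Hspa1a promoter: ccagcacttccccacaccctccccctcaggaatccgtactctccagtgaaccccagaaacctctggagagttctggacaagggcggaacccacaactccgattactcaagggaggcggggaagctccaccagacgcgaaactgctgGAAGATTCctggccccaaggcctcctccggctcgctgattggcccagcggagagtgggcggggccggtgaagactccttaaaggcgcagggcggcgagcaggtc
Hspa1b promoter: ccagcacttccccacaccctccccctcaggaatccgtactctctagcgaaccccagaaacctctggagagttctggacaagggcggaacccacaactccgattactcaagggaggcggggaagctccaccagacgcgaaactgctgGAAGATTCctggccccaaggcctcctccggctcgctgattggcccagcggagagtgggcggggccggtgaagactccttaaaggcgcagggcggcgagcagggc

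The motif ended 97 bases upstream of both starts, and 3 of the 250 bases differed between the genes (98.8% identity). Among listed heat shock genes with a promoter in the table, 10 of 22 held the motif, beside 14.5% of 27025 genes with a window of the same length. Dnajb4 was among the 10, and Dnajb1 was not. Both array probes of Hspa1b are annotated to Hspa1a as well, so a change of Hspa1b alone cannot be read. The probe used is shown (chromosome 17, 35094200 to 35094259 in mm9, minus strand).
Hspa1b probe: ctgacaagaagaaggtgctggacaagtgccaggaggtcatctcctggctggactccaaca

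Hspa1a read 1.65, 1.90 and 1.69 in chow 1 to 3, and -1.22, -1.56 and -1.41 in HFD+APS 1 to 3. The groups lay far apart, and the HFD arrays at -0.20, -0.07 and 1.24 fell between them. The difference was -3.15 ± 0.34, an 8.85-fold lower signal (limma, adjusted p = 0.00872, lower in 3 of 3 livers), on a probe of chromosome 17 from 35106766 to 35106825 (mm9). HFD alone was lower than chow by 1.42 (difference -1.42 ± 0.34, adjusted p = 0.0363), and HFD+APS against HFD missed the threshold (-1.72 ± 0.34, adjusted p = 0.0545). HFD+APS 1, from the slide of the HFD arrays, stood at -2.97 against the chow mean, and the mean of HFD+APS 2 and 3 stood at -3.24.

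Hspa1b read -0.25, 0.54 and -0.05 in chow and -2.73, -2.96 and -2.56 in HFD+APS, again without overlap. Its difference was -2.83 ± 0.34 (limma, adjusted p = 0.0112), and the HFD arrays at -1.94, -1.22 and -0.58 lay between the groups here too. Leaving out chow 2 ended the call of Hspa1a (adjusted p = 0.0565), and leaving out chow 2 or chow 3 ended that of Hspa1b (highest adjusted p 0.0575). With normexp the differences were smaller, at -2.51 for Hspa1a and -1.69 for Hspa1b, and both were called. Both kept their calls with slide as a random block, and both lost them with HFD+APS 1 as the only HFD+APS array (adjusted p = 0.0934 and 0.101).

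Dnajb1, the Hsp40 partner of Hsp70, fell from 5.09 ± 0.33 in chow to 4.27 ± 0.17 in HFD+APS (mean ± SD, n = 3), a difference of -0.82 ± 0.18 (limma, adjusted p = 0.0482). Dnajb4, a second Hsp40 protein, fell by 0.48 on the log2 scale (difference -0.48 ± 0.10, adjusted p = 0.0445). The 4 probes of Dnajb4 disagreed, with differences from -0.62 to 0.05, and the mean of its probes was not called (adjusted p = 0.191). Dnajb1 and Dnajb4 lost their calls with slide as a random block (adjusted p = 0.0929 and 0.0883). Leaving out chow 2, chow 3, HFD 1, HFD 2 or any HFD+APS array ended both calls, and leaving out chow 1 or HFD 3 ended that of Dnajb4 (highest adjusted p 0.141 for Dnajb1 and 0.142 for Dnajb4).

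The remaining 23 heat shock genes did not pass. Among them were the cochaperone Bag3 (-1.03 ± 0.28, limma, adjusted p = 0.0754), the small heat shock protein Hspb1 (-0.70 ± 0.20, adjusted p = 0.0821), Hsp90aa1, the inducible Hsp90 (-0.68 ± 0.23, adjusted p = 0.116), and Hsf1, the regulator itself (-0.67 ± 0.17, adjusted p = 0.0608). Hspb8 had the highest difference of the list at 0.39 ± 0.21 (adjusted p = 0.28). Of 21 immediate early genes, another group that answers stress and handling, only Gadd45b fell and 0 rose, with a median of -0.328. Gadd45b is a stress-induced growth arrest gene that CAR also drives. It went from 1.57 ± 0.58 in chow to -0.06 ± 0.58 in HFD+APS, with HFD at -0.23 ± 0.15 (difference from chow -1.63 ± 0.34, limma, adjusted p = 0.0422). Its call was lost with slide as a random block (adjusted p = 0.0852) and without any 1 of the arrays except HFD+APS 1 (highest adjusted p 0.135). The part of tissue handling in these falls was not tested. None of the 28 genes of the endoplasmic reticulum stress response passed (5 at an unadjusted p under 0.05), and their median difference was -0.0846.

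**Figure D2:**
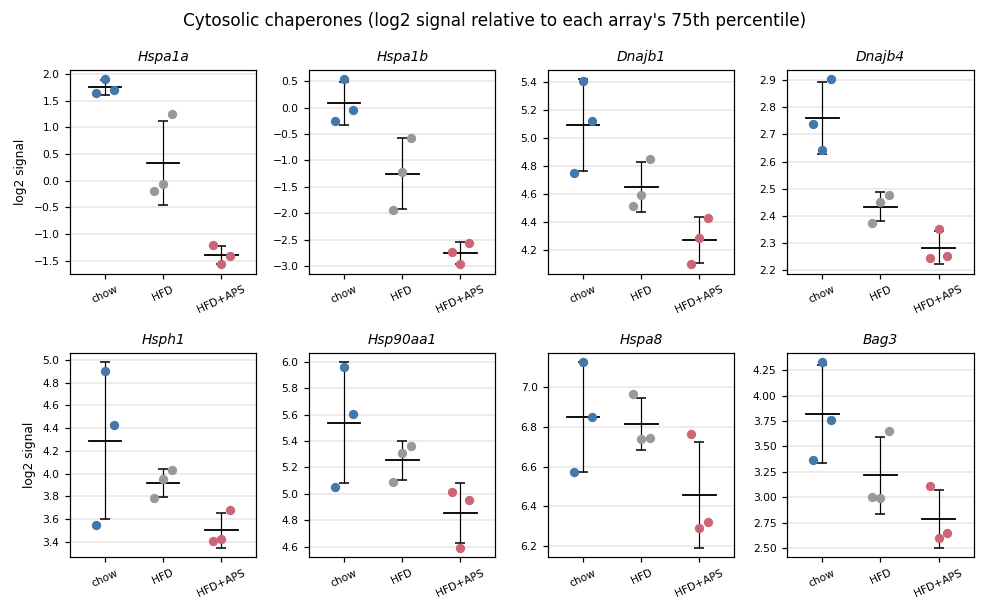
Log2 signal relative to each array's 75th percentile (vertical axes) of 8 cytosolic chaperone genes by diet group, with 1 point for each array, a line for the mean and bars for the SD (n = 3). Hspa1a is at 1.65 to 1.90 in chow and at -1.56 to -1.22 in HFD+APS, while for Hspa8 the groups overlap.

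Cyp2b9 and Cyp2b13, P450 enzymes more abundant in female than in male mouse liver, rose by 1.99 and 1.92 on the log2 scale and stayed far below their HFD levels. For Cyp2b13 that value is from a probe that also matches Cyp2b9 and Cyp2b10, and the probe annotated to Cyp2b13 alone gave 0.90. The female-biased sulfotransferase Sult3a1 rose by 1.21. Of 17 female-biased liver genes measured these 3 rose, beside 1.11% of all features, and 0 fell, with a median of 0.229. The rise under the name Cyp2b13 is not separate from that of Cyp2b9, so the 3 are not 3 separate rises. None of 22 male-biased genes passed in limma (8 at an unadjusted p under 0.05, median 0.144). In HFD against chow 5 female-biased genes rose and 3 fell, and 6 male-biased genes fell, beside 4.31% of all features that rose and 6.83% that fell. The list of Cyp2b genes and other CAR or PXR targets had 24 members measured, of which Cyp2b9 and Cyp2b13 rose and Cyp2b19 and Gadd45b fell, with a median of 0.0186.

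The promoters of Cyp2b9 and Cyp2b13 are printed because probes under both names rose and the genes are close copies. Over the 250 bases before their starts 2 bases differ, which are in capitals (99.2% identity; RefSeq, GRCm38.p6, plus strand, chr7:26173159-26173408 and chr7:26061245-26061494).
Cyp2b9 promoter: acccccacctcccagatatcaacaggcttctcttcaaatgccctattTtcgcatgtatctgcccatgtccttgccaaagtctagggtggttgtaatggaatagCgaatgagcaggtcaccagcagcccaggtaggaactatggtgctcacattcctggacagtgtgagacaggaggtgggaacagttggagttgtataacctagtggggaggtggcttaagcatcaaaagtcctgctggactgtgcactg
Cyp2b13 promoter: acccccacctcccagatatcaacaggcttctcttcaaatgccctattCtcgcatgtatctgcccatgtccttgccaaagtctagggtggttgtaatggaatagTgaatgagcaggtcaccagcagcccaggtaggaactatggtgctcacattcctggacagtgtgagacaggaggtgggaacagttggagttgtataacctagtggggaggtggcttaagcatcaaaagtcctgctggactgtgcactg

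The likeness extends to the probes. The Cyp2b9 probe used here is annotated also to Cyp2b10, and the Cyp2b13 probe to Cyp2b9 and Cyp2b10 as well. A further probe is annotated to Cyp2b9 alone, lies on chromosome 7 from 26983484 to 26983543 (mm9, plus strand), and gave a difference of 2.0.
Cyp2b9 probe: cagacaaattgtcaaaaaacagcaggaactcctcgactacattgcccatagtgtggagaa
The size for Cyp2b13 thus depends on the probe, and the call under its name is not separate from that of Cyp2b9. The probe annotated to Cyp2b13 alone was not tested by itself.

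Cyp2b9 read 1.45, 1.81 and 1.61 in chow, 3.30, 3.78 and 3.76 in HFD+APS, and 6.23, 6.58 and 5.57 in HFD. The 3 groups did not overlap, with HFD+APS in the middle. The difference from chow was 1.99 ± 0.26, or 3.97-fold (limma, adjusted p = 0.0131, higher in 3 of 3 livers), and that from HFD was -2.51 ± 0.26 (adjusted p = 0.00905).

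Cyp2b13 read -0.51, -0.45 and -0.58 in chow, 1.02, 1.64 and 1.56 in HFD+APS, and 3.92, 4.56 and 3.16 in HFD. Its order was the same, with a difference from chow of 1.92 ± 0.32 (limma, adjusted p = 0.0255) and from HFD of -2.47 ± 0.32 (adjusted p = 0.0174). Cyp2b10, the classical target of CAR, read -1.95, -2.27 and -1.92 in chow, -0.69, -1.19 and -0.84 in HFD+APS, and 0.99, 2.40 and 0.09 in HFD (SD 1.16). Its groups did not overlap, yet the difference of HFD+APS from chow, 1.14 ± 0.49, did not pass (limma, adjusted p = 0.193, 95% interval 0.01 to 2.26). The fit to the 6 chow and HFD+APS arrays alone did call Cyp2b10 (adjusted p = 0.0376).

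Sult3a1 read -3.97, -4.48 and -4.54 in chow, where it was well above background on 1 of 3 arrays, and -3.23, -3.05 and -3.08 in HFD+APS. The groups stood apart, and HFD at -2.04, -2.31 and -2.42 was above both. The difference was 1.21 ± 0.17 (limma, adjusted p = 0.016), and with normexp it was 0.34 and not called (adjusted p = 0.07). Leaving out chow 2, chow 3, HFD+APS 2 or HFD+APS 3 ended the calls of Cyp2b9, Cyp2b13 and Sult3a1 (highest adjusted p 0.0615, 0.101 and 0.0829), and leaving out chow 1 also that of Cyp2b13. With slide as a random block Cyp2b9 and Sult3a1 kept theirs, and Cyp2b13 did not (adjusted p = 0.0559).

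Cyp2b19, a P450 best known from skin, moved the other way. It fell from -3.28 ± 0.39 to -4.34 ± 0.20 (difference -1.06 ± 0.23, limma, adjusted p = 0.0459), and was well above background on 2 of 3 HFD+APS arrays. With normexp the difference was -0.25. The call was lost under 9 of the alternatives besides single arrays left out, with slide as a random block at adjusted p = 0.0907, and without any 1 array except HFD 1 or HFD 3 (highest adjusted p 0.15). Among other fixed P450 genes, Cyp3a11, the main PXR target, differed by 0.25 ± 0.41 (adjusted p = 0.74) with means of 6.51 in chow, 6.76 in HFD+APS and 4.47 in HFD.

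Of 27 listed conjugation enzymes, which couple hormones and drugs to sulfate or other groups, 3 rose and 0 fell, with Sult1e1 and Sult3a1 among the rises. Of all features 1.11% rose and 3.15% fell. The list does not hold every conjugation enzyme: Ugt1a9, described below, is outside it and fell by 1.67 on the log2 scale. Sult1e1, the estrogen sulfotransferase, read -2.76, -3.11 and -3.09 in chow and -1.53, -1.57 and -1.46 in HFD+APS. The HFD arrays at -1.76, -1.56 and -1.63 overlapped with HFD+APS. The difference from chow was 1.47 ± 0.12, or 2.77-fold (limma, adjusted p = 0.00379), and that from HFD was 0.13 ± 0.12 (adjusted p = 0.617). Sult1e1 was the only gene of the lists that kept its call with each of the 9 arrays left out, with slide as a random block and with HFD+APS 1 as the only HFD+APS array. With normexp the difference was smaller, at 0.65, and was called (adjusted p = 0.00765). The Sult1e1 probe lies on chromosome 5 from 88005187 to 88005246 (mm9).

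**Figure D3:**
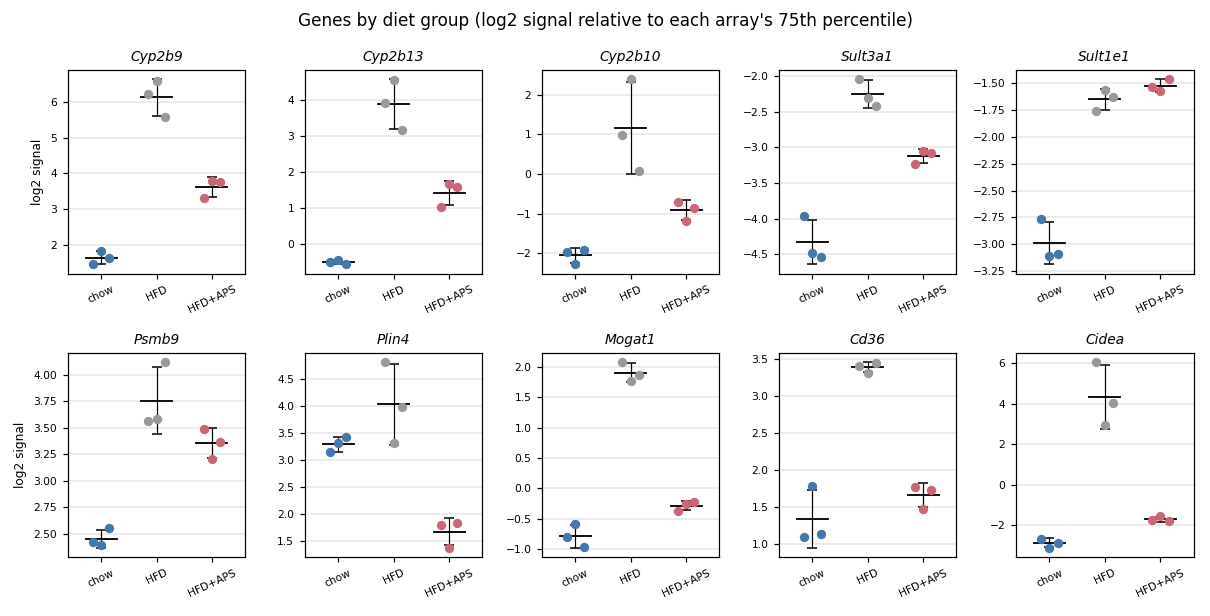
Log2 signal relative to each array's 75th percentile (vertical axes) of 10 genes by diet group, 1 point for each array with the mean as a line and the SD as bars (n = 3). In HFD+APS, Cyp2b9 lies at 3.30 to 3.78 between chow and HFD, Sult1e1 lies at -1.57 to -1.46 with HFD, and Plin4 lies at 1.38 to 1.83 below both.

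Among 28 genes of lipid droplets and fat storage, Plin4 fell and 0 rose, with a median of -0.117. In HFD against chow 6 of the same genes rose and 0 fell, with a median of 0.147. Plin4, a perilipin that coats lipid droplets, read 3.14, 3.32 and 3.42 in chow and 1.81, 1.38 and 1.83 in HFD+APS, while HFD stood at 4.81, 3.31 and 3.98. HFD+APS was the lowest group in every array. The difference was -1.62 ± 0.33, or 3.07-fold lower than chow (limma, adjusted p = 0.0397), and -2.36 ± 0.33 against HFD (adjusted p = 0.0203). The call against chow was lost without any chow array, HFD+APS 2 or HFD+APS 3 (highest adjusted p 0.131) and with slide as a random block (adjusted p = 0.0837).

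The other fat storage genes did not pass against chow in the fit to all 9 arrays. Cd36, a fatty acid transporter, read 1.09, 1.78 and 1.13 in chow, 1.77, 1.47 and 1.73 in HFD+APS, and 3.41, 3.32 and 3.45 in HFD. Chow and HFD+APS overlapped, with a difference of 0.32 ± 0.19 (95% interval -0.11 to 0.76, limma, adjusted p = 0.324). Mogat1, an enzyme of triglyceride synthesis, read -0.81, -0.59 and -0.97 in chow and -0.37, -0.26 and -0.23 in HFD+APS. These did not overlap, and the difference of 0.50 ± 0.13 had an interval of 0.20 to 0.80 (adjusted p = 0.068; the mean of the gene's probes was called, at 0.84 with adjusted p = 0.0482), against a difference of 2.70 ± 0.13 for HFD minus chow.

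Cidea, a droplet protein scarce in lean liver, read -2.67, -3.12 and -2.88 in chow and -1.77, -1.57 and -1.79 in HFD+APS, beside 6.06, 2.94 and 4.06 in HFD. Its difference from chow was 1.18 ± 0.65 (95% interval -0.30 to 2.66, limma, adjusted p = 0.294). The groups did not overlap, and the fit to the 6 chow and HFD+APS arrays alone did call Cidea (limma, adjusted p = 0.0316). The SD was 1.58 in HFD, 0.22 in chow and 0.12 in HFD+APS. Cidec, a related droplet protein, read 3.88 in HFD+APS 1 but 1.07 and 1.44 in HFD+APS 2 and 3, across the chow range of 2.38 to 3.17 (-0.57 ± 0.73, adjusted p = 0.664). Pparg, the receptor that drives such genes, differed by -0.19 ± 0.27 (adjusted p = 0.699).

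Of 21 genes of lipogenesis and desaturation, Gpam fell and 0 rose. The median was -0.388, and 15 of the 21 differences were negative. Gpam, the mitochondrial enzyme of the opening step of triglyceride synthesis, went from -1.04 ± 0.10 in chow to -1.75 ± 0.11 in HFD+APS (difference -0.71 ± 0.13, limma, adjusted p = 0.0298), and HFD at -1.58 ± 0.18 was also below chow. HFD+APS 1 had the lowest signal of the 9 arrays for Scd1 (4.57, with 7.20 and 6.10 in HFD+APS 2 and 3) and for Fasn (3.96, with 5.26 and 4.99). Scd1, the stearoyl-CoA desaturase, therefore differed by -0.38 ± 0.59 (adjusted p = 0.729), Fasn, the fatty acid synthase, by -0.67 ± 0.34 (adjusted p = 0.26), and Srebf1, which drives both, by 0.05 ± 0.40 (adjusted p = 0.949). Elovl3, a fatty acid elongase that is male-biased, differed by -1.12 ± 0.35 (adjusted p = 0.102).

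Cholesterol synthesis and uptake had 24 genes measured, with Hsd17b7 lower, 0 higher and a median of -0.226. Hsd17b7, an enzyme of cholesterol and estradiol synthesis, fell from 4.85 ± 0.23 to 4.18 ± 0.16 (difference -0.67 ± 0.14, limma, adjusted p = 0.043), and HFD stood at 3.89 ± 0.03. Sqle, the squalene epoxidase, differed by -1.03 ± 0.78 (adjusted p = 0.451). Of 20 lipoprotein genes, Scarb1 rose and 0 fell (median 0.263). Scarb1, the receptor that takes cholesterol from HDL, rose from 4.14 ± 0.24 to 4.79 ± 0.08 (difference 0.65 ± 0.14, adjusted p = 0.043), while HFD at 4.22 ± 0.10 was near chow. Apoa4, an apolipoprotein that follows fat intake, differed by 1.03 ± 0.48 (adjusted p = 0.225), spread over 3.87, 3.23 and 1.84 in HFD+APS.

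The calls of Gpam, Hsd17b7 and Scarb1 were lost with slide as a random block (adjusted p = 0.0614, 0.0868 and 0.0853), and that of Gpam also with normexp (adjusted p = 0.077). Each was lost without any chow array, HFD 2, HFD+APS 2 or HFD+APS 3, and leaving out HFD 1 also ended those of Hsd17b7 and Scarb1, HFD 3 that of Hsd17b7, and HFD+APS 1 that of Scarb1 (highest adjusted p 0.101, 0.129 and 0.126).

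None of 34 genes of fatty acid oxidation and PPAR alpha targets passed (6 at an unadjusted p under 0.05, median -0.0993), and none of 21 genes of bile acid synthesis and transport did (2 at an unadjusted p under 0.05, median 0.196, 18 of 21 differences positive). Fgf21, a fasting hormone of the liver, read 2.33 in HFD+APS 1 and 0.16 and 0.26 in HFD+APS 2 and 3 (-1.06 ± 0.52, limma, adjusted p = 0.249). Cyp4a14, a fatty acid hydroxylase induced by PPAR alpha, differed by -0.39 ± 0.26 (adjusted p = 0.402). Cyp7a1, the rate-limiting enzyme of bile acid synthesis, differed by 0.59 ± 0.54 (adjusted p = 0.536), and Cyp7b1, of the alternative route, by 0.50 ± 0.22 (adjusted p = 0.203).

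Interferon-stimulated genes and the immunoproteasome had 35 genes measured, of which Psmb9 and Ifit3 rose and 0 fell. The differences were positive in 29 of 35, beside 45.3% of all features, and the median was 0.368. In HFD against chow, where 4.31% of all features rose, 9 of these genes rose (median 0.517). Psmb9, a catalytic subunit of the immunoproteasome, read 2.42, 2.39 and 2.55 in chow, 3.49, 3.21 and 3.37 in HFD+APS, and 3.56, 3.59 and 4.12 in HFD. Both fat-fed groups lay above chow without overlap. The difference from chow was 0.90 ± 0.16, or 1.87-fold (limma, adjusted p = 0.0314), and that from HFD was -0.40 ± 0.16 (adjusted p = 0.256). The Psmb9 probe lies on chromosome 17 from 34319174 to 34319233 (mm9, minus strand).
Psmb9 probe: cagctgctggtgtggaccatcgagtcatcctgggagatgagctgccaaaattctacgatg

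Ifit3, an interferon-induced antiviral protein, read 1.23, 1.08 and 1.5 in chow and 2.20, 1.81 and 2.28 in HFD+APS, with HFD at 2.15, 2.42 and 2.32. HFD+APS overlapped with HFD and not with chow, and its difference from chow was 0.83 ± 0.16 (limma, adjusted p = 0.037). Its promoter is shown as an example of an interferon motif (RefSeq, GRCm38.p6, plus strand, chr19:34583279-34583528). Capitals mark the 10 letters of an interferon response motif, a pair of GAAA with any 2 bases between them, read on either strand, which began 156 and 122 bases upstream of the start and overlapped no other motif searched.
Ifit3 promoter: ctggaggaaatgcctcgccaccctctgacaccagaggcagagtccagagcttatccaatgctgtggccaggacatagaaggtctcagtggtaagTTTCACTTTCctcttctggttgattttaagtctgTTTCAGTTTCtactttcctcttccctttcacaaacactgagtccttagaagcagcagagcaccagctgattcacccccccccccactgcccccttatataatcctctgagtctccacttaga
The motif stood in 13 of 27 listed interferon genes with a promoter in the table and in 3.5% of 27025 genes with a window. Ifit3 was among the 13 and Psmb9 was not. A further motif searched, TTCNNNGAA, stood in 8 of the 27 and in 8.1% of genes, with neither Psmb9 nor Ifit3 among the 8. Psmb9 held a match to the heat shock motif searched above, 194 to 187 bases upstream.

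The calls of Psmb9 and Ifit3 were lost without any chow array, HFD 2, HFD+APS 2 or HFD+APS 3 (highest adjusted p 0.115 and 0.128) and with slide as a random block (adjusted p = 0.0646 and 0.0757). The immunoproteasome subunit Psmb8 differed by 0.51 ± 0.20 (limma, adjusted p = 0.159), and Tap1, the peptide transporter encoded beside it, by 0.53 ± 0.19 (adjusted p = 0.139). None of 15 antigen presentation genes, 24 inflammatory genes or 24 acute phase genes passed, and 1, 3 and 0 of them were at an unadjusted p under 0.05. Ccl2, a monocyte attractant, differed by 0.09 ± 0.54 (adjusted p = 0.937).

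Markers of the liver's other cells were measured in 10 lists, and calls were made in those of endothelium and Kupffer cells. Of 15 sinusoidal endothelial markers, Gpr182, Fcgr2b and Clec4g rose, beside 1.11% of all features, and 0 fell. Over the 15 markers 14 differences were positive, beside 45.3% of all features, and the median was 0.43. Their summed signal was 5.66 to 6.28 on the chow arrays, 6.58 to 6.79 in HFD+APS and 6.47 to 6.74 in HFD (log2), so chow lay below both. Gpr182, a chemokine-binding receptor of endothelium, read 1.43, 1.28 and 1.79 in chow, 2.73, 2.39 and 2.83 in HFD+APS, and 2.37, 2.85 and 2.77 in HFD (difference from chow 1.15 ± 0.19, limma, adjusted p = 0.0253). Fcgr2b, the inhibitory Fc receptor, rose by 1.13 (1.13 ± 0.24, adjusted p = 0.0451), and Clec4g, a lectin of sinusoidal endothelium, by 0.87 (0.87 ± 0.19, adjusted p = 0.0482). The general endothelial markers Pecam1 and Vwf differed by 0.04 ± 0.12 and -0.03 ± 0.24 (adjusted p = 0.886 and 0.958).

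With the authors' values, and with quantile normalization, Gpr182 alone of these 3 was called (limma, adjusted p = 0.0597 and 0.0569 for Fcgr2b, 0.0736 and 0.0754 for Clec4g). The mean of a gene's probes was not called for Fcgr2b (adjusted p = 0.0533) or Clec4g (adjusted p = 0.201), nor was Clec4g with normexp (adjusted p = 0.0553). Probes of Clec4g disagreed (-0.15 and 0.87), as did those of Gpr182 in size (0.40 and 1.15). With slide as a random block Gpr182, Fcgr2b and Clec4g were not called (limma, adjusted p = 0.0551, 0.0909 and 0.093). Leaving out chow 2, chow 3, HFD+APS 2 or HFD+APS 3 ended all 3 calls, chow 1 those of Gpr182 and Clec4g, and any HFD array or HFD+APS 1 those of Fcgr2b and Clec4g (highest adjusted p 0.104, 0.134 and 0.132).

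Of 15 genes listed as Kupffer cell markers, Xcr1 fell and 0 rose. Xcr1 is best known from dendritic cells, so its fall is not read as a fall of Kupffer cells. Of the 15 differences 13 were positive, beside 45.3% of all features, and the median was 0.759. The summed signal of the list was 6.08 to 6.57 in chow and 6.45 to 7.26 in HFD+APS, which overlap, and 6.69 to 7.19 in HFD. Clec4f and Vsig4, both typical of Kupffer cells, differed by 1.02 ± 0.27 and 1.17 ± 0.43 (limma, adjusted p = 0.0735 and 0.139). Xcr1, a chemokine receptor, went from -1.45 ± 0.23 to -2.33 ± 0.10, with HFD at -2.72 ± 0.34 (difference from chow -0.89 ± 0.19, adjusted p = 0.0445). Xcr1 lost its call with slide as a random block (adjusted p = 0.0907), the authors' values (adjusted p = 0.0529), quantile normalization (adjusted p = 0.0513) and normexp (adjusted p = 0.0619), and without any chow array, HFD 2, HFD+APS 2 or HFD+APS 3 (highest adjusted p 0.132).

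No marker of stellate cells and fibrosis passed among 20 (2 at an unadjusted p under 0.05, median 0.378, summed signal 6.38 to 7.19 in chow and 7 to 7.26 in HFD+APS). Col1a1, a fibrillar collagen, differed by 0.39 ± 0.45 (limma, adjusted p = 0.629). None passed among 11 markers of monocyte-derived macrophages (summed signal 5.01 to 5.9 in chow and 5.55 to 6.24 in HFD+APS), 14 of lymphocytes (1.78 to 3.15 and 1.62 to 2.53), 4 of neutrophils (0.47 to 2.65 and 1.44 to 3.09) or 10 of bile ducts (7.28 to 7.63 and 7.47 to 7.76). At an unadjusted p under 0.05 were 3 of the macrophage, 3 of the lymphocyte, 0 of the neutrophil and 0 of the bile duct markers. Of the adipocyte list 5 of 10 genes were measured, with summed signals of 1.38 to 3.48 in chow and 2.07 to 2.25 in HFD+APS, and Adipoq, Lep, Plin1, Retn and Adrb3 did not pass the filter on dim probes. Red blood cell markers gave 5.76 to 7.42 and 6.24 to 7.05 over 4 genes. Of the pancreatic list 2 of 10 were measured, at 1.87 to 1.95 and 1.72 to 2.26. The part of cell composition in the differences above was not tested.

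**Figure D4:**
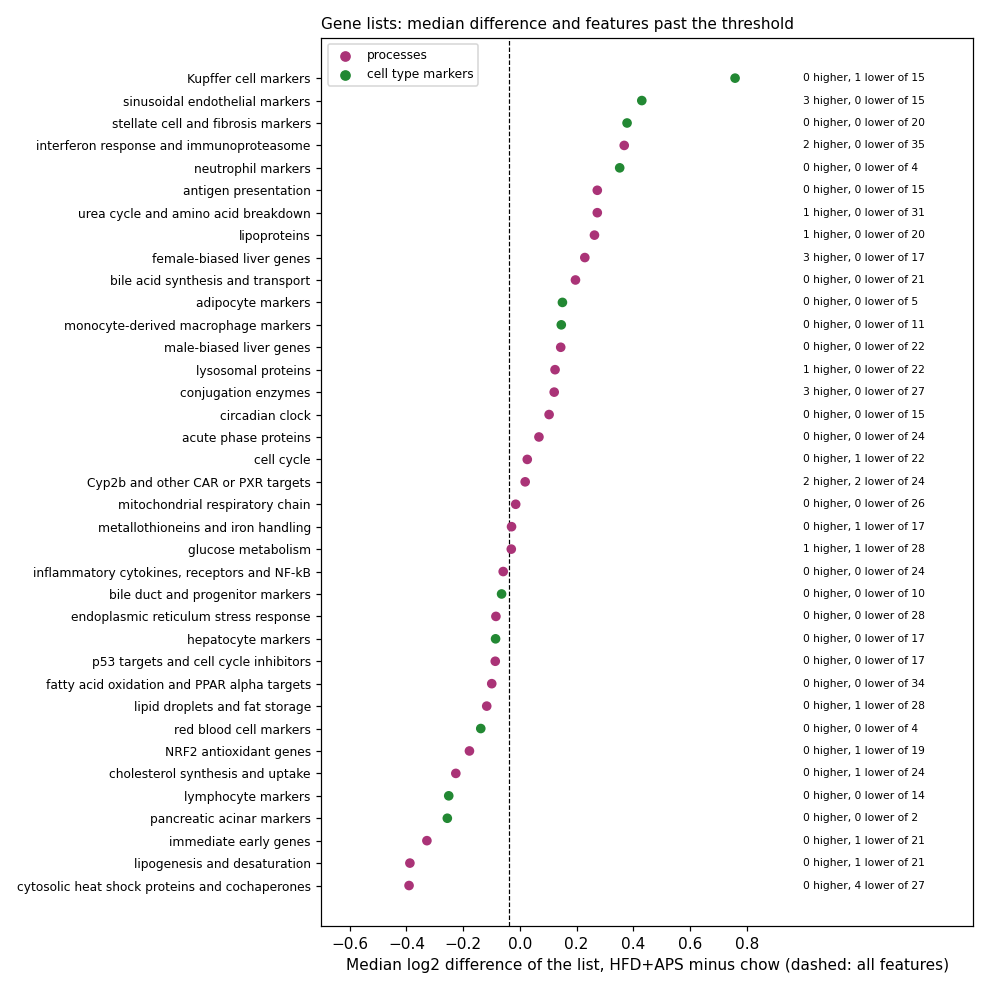
Median log2 difference of HFD+APS minus chow (horizontal axis) for each of 37 gene lists (rows), with the number of members that rose and fell of those measured, and the median of all features as a dashed line at -0.0379. Kupffer cell markers stand highest at 0.759 and the list of heat shock proteins and cochaperones lowest at -0.391, and 4 members of the latter fell.

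Of 31 genes of the urea cycle and amino acid breakdown, Hgd rose and 0 fell. The differences were positive in 26 of 31, beside 45.3% of all features, with a median of 0.273. In HFD against chow, where 6.83% of all features fell, 8 of these genes fell (median -0.211). In HFD+APS against HFD, where 0.459% of all features rose, 6 rose. Hgd, an enzyme of tyrosine breakdown, read 4.83, 4.37 and 4.63 in chow and 5.38, 5.34 and 5.29 in HFD+APS, with HFD at 4.70, 4.77 and 4.67. HFD+APS stood above both groups, by 0.73 ± 0.13 over chow (limma, adjusted p = 0.0282), while the difference from HFD missed the threshold (adjusted p = 0.0586). Cps1, which starts the urea cycle, differed from chow by 0.58 ± 0.19 (adjusted p = 0.107), and Arg1, which ends it, by 0.44 ± 0.12 (adjusted p = 0.0793).

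In glucose metabolism 28 genes were measured, of which Pfkfb1 rose and Pgd fell (median -0.0304). Pfkfb1, the liver enzyme that sets fructose 2,6-bisphosphate, rose from 2.79 ± 0.27 to 3.65 ± 0.25 (difference 0.86 ± 0.18, limma, adjusted p = 0.0423). Pgd, of the pentose phosphate route that supplies NADPH, fell from 1.78 ± 0.13 to 1.26 ± 0.13 (difference -0.52 ± 0.11, adjusted p = 0.0466), and it was also below HFD at 2.06 ± 0.08 (adjusted p = 0.0217). A second Pgd probe gave -0.08.

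The cell cycle list had 22 genes measured, with Ccne1 lower and 0 higher (median 0.026). In HFD against chow 11 of them rose, beside 4.31% of all features. In HFD+APS against HFD, where 0.856% of all features fell, 9 of these genes fell. Ccne1, cyclin E1, read -1.68, -1.73 and -1.68 in chow, -2.77, -2.86 and -2.19 in HFD+APS, and -0.78, -1.08 and -0.71 in HFD, with no overlap of any pair of groups. It was 0.91 below chow (difference -0.91 ± 0.18, limma, adjusted p = 0.0387). Cdc20, which activates the anaphase-promoting complex, differed from chow by 0.71 ± 0.32 (adjusted p = 0.214), and Mki67, the Ki-67 antigen, by 0.48 ± 0.27 (adjusted p = 0.3). Lgals1, a galectin, had means of 2.11 in chow, 1.74 in HFD+APS and 5.09 in HFD (-0.36 ± 0.20, adjusted p = 0.304).

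The antioxidant list of NRF2 targets had 19 genes measured, with Gclc lower, and the list of metallothioneins and iron handling 17, with Tfrc lower. Gclc, the rate-limiting enzyme of glutathione synthesis, fell from 5.96 ± 0.31 to 5.21 ± 0.18 (difference -0.76 ± 0.17, limma, adjusted p = 0.0485). Tfrc, the transferrin receptor, fell from -0.84 ± 0.24 to -1.85 ± 0.24 (difference -1.01 ± 0.17, adjusted p = 0.0278). No gene passed among 26 of the respiratory chain, 17 p53 targets and cell cycle inhibitors, or 15 clock genes (4, 5 and 1 at an unadjusted p under 0.05).

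The calls of Hgd, Pfkfb1, Pgd, Ccne1, Gclc and Tfrc were lost with slide as a random block (limma, adjusted p = 0.0592, 0.0849, 0.0926, 0.0772, 0.0944 and 0.0593). Leaving out chow 2, chow 3 or HFD+APS 2 ended all 6, and HFD+APS 3 ended them except that of Ccne1. Chow 1 ended those of Pfkfb1, Pgd, Ccne1 and Gclc, HFD 2 those of Hgd, Pfkfb1, Pgd, Ccne1 and Gclc, HFD 1 those of Pfkfb1, Pgd, Ccne1 and Gclc, HFD 3 those of Pgd and Gclc, and HFD+APS 1 that of Gclc. Ccne1 was not called with the authors' values, quantile normalization or normexp (adjusted p = 0.0529, 0.0533 and 0.0539), nor Pgd with normexp or the mean of its probes (adjusted p = 0.0761 and 0.16). Gclc was not called with the mean of a gene's probes or with detection on 3 of all 9 arrays (adjusted p = 0.0503 and 0.0507). With 1 array left out, the highest adjusted p-values were 0.0917 for Hgd, 0.135 for Pfkfb1, 0.151 for Pgd, 0.123 for Ccne1, 0.145 for Gclc and 0.106 for Tfrc.

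Across all features, 3 rises and 21 falls were called in the full data and again with each of the 9 arrays left out. Of these, 1 rise and 13 falls were features detected in 1 group only, which the filter had picked for their difference, so that count is no sign of stability. The rises detected in both groups were Sult1e1 and Them7. Them7 read 0.15, 0.20 and -0.05 in chow and 1.08, 0.94 and 1.19 in HFD+APS, with HFD between 0.98 and 1.13, close to HFD+APS (difference from chow 0.98 ± 0.11, limma, adjusted p = 0.0109).

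Ugt1a9, a glucuronosyltransferase whose exons are shared in part with other Ugt1a genes, was well above background on all chow arrays and on 2 of 3 HFD+APS arrays. It read -1.5, -1.70 and -0.95 in chow and -3.27, -2.88 and -3.01 in HFD+APS, with HFD at -3.34 to -2.89. The difference was -1.67 ± 0.21, or 3.19-fold lower (limma, adjusted p = 0.0131), and with normexp it was -0.80. Ugt1a9 and Them7 lost their calls with HFD+APS 1 as the only HFD+APS array (adjusted p = 0.0766 and 0.0753).

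The genes detected in 1 group only are given as a description, without a test. Arrays of the lower group that read below the lowest signal called above background on that array were raised to it, and higher readings were kept. Some undetected probes read above that signal, so "at least" marks an approximate floor and not a strict bound. Btbd35f1 read -2.30, -2.56 and -2.21 in chow and -5.82, -5.80 and -4.96 in HFD+APS, at least 3.62-fold lower, and HFD was as low at -5.55 ± 0.22. Tmem59l was at least 5.50-fold lower than chow, with means of -1.64 and -4.78, and HFD lay between them at -2.88. Rtn4rl2, a Nogo receptor relative, was at least 3.43-fold lower, an immunoglobulin kappa variable segment at least 2.75-fold, Spindoc at least 2.47-fold, and Pex5l at least 2.05-fold. Olfr531, Clec2l, Tmem130 and Septin5 were at least 1.61-fold, 1.32-fold, 1.22-fold and 1.21-fold lower. Zfp941, a zinc finger gene, was at least 1.92-fold higher in HFD+APS than in chow, with means of -3.27 and -4.50. With normexp the differences of these genes were small, from -0.79 for Tmem59l to -0.20 for Clec2l and 0.30 for Zfp941. Its offset by itself shrinks the differences of such dim probes, so these values do not measure the true size.

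Some genes stood apart from both other diets in the same direction. Eif4ebp3, a repressor of cap-dependent translation, read 4.19, 3.94 and 3.78 in chow, 3.50, 3.51 and 2.63 in HFD, and 5.65, 5.59 and 5.07 in HFD+APS. HFD+APS was highest without overlap, by 1.47 ± 0.27 over chow (limma, adjusted p = 0.0306) and 2.22 ± 0.27 over HFD (adjusted p = 0.0123). Among the 6 leading genes of this kind, Plin4, Mmd2 and Lypd6 stood below both diets, beside Tmem59l and Clec2l, which no HFD+APS array detected. Mmd2, a Golgi membrane protein, read -1.57, -2.59 and -1.83 in chow and -5.71, -3.77 and -4.43 in HFD+APS, with HFD at -1.56 ± 0.67. It was well above background on 1 of 3 HFD+APS arrays, so the size of its difference is uncertain (-2.64 ± 0.53, limma, adjusted p = 0.038, and -0.82 with normexp). Lypd6 differed by -1.84 ± 0.34 (adjusted p = 0.0327), but its second probe gave 1.17, and neither the mean of its probes (adjusted p = 0.521) nor normexp (-0.41, adjusted p = 0.114) gave a call.

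Other genes lay between the diets, called against both chow and HFD with opposite signs. Besides Cyp2b9 and Cyp2b13 these were Gpc1, Dglucy, Tmem237 and Slco2a1. Gpc1, a cell surface proteoglycan, read 2.58, 2.55 and 2.43 in chow, 3.52, 3.26 and 3.21 in HFD+APS, and 4.55, 4.48 and 4.21 in HFD (0.81 ± 0.13 over chow, limma, adjusted p = 0.0224). Dglucy, an enzyme of D-glutamate, was 0.61 ± 0.11 above chow (adjusted p = 0.0334), though its second probe gave 0.14, and Tmem237, a protein of the primary cilium, was 0.71 ± 0.14 above (adjusted p = 0.0382). Slco2a1, the prostaglandin transporter, was the gene among these that HFD lowered. It read 3.61, 3.40 and 3.56 in chow, 2.88, 2.92 and 2.98 in HFD+APS and 1.69, 1.99 and 1.85 in HFD, and was 0.60 below chow in HFD+APS (difference -0.60 ± 0.11, adjusted p = 0.0334).

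Of these genes, Gpc1 kept its call with slide as a random block, and Eif4ebp3, Mmd2, Lypd6, Dglucy, Slco2a1 and Tmem237 did not (limma, adjusted p = 0.0642, 0.0714, 0.0683, 0.0682, 0.0688 and 0.0772). Mmd2 was not called with the authors' values or quantile normalization (adjusted p = 0.0601 and 0.0574), nor Dglucy with the mean of its probes (adjusted p = 0.28). Leaving out chow 2, chow 3, HFD+APS 2 or HFD+APS 3 ended every one of these 7 calls, chow 1 all but that of Gpc1, HFD 2 those of Mmd2, Lypd6, Dglucy, Slco2a1 and Tmem237, and HFD 1 those of Mmd2 and Tmem237. With 1 array left out, the highest adjusted p-values were 0.0915 for Gpc1, 0.113 for Eif4ebp3, 0.109 for Mmd2, 0.12 for Lypd6, 0.114 for Dglucy, 0.104 for Slco2a1 and 0.131 for Tmem237.

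In the fit to the 6 chow and HFD+APS arrays alone, the calls lost included those of Dnajb1, Dnajb4, Gadd45b, Cyp2b19, Hsd17b7, Scarb1, Ifit3, Fcgr2b, Clec4g, Hgd, Pfkfb1, Pgd, Ccne1, Gclc, Mmd2, Dglucy, Slco2a1 and Tmem237 (limma, adjusted p from 0.0529 for Slco2a1 to 0.0845 for Gclc).

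**Figure D5:**
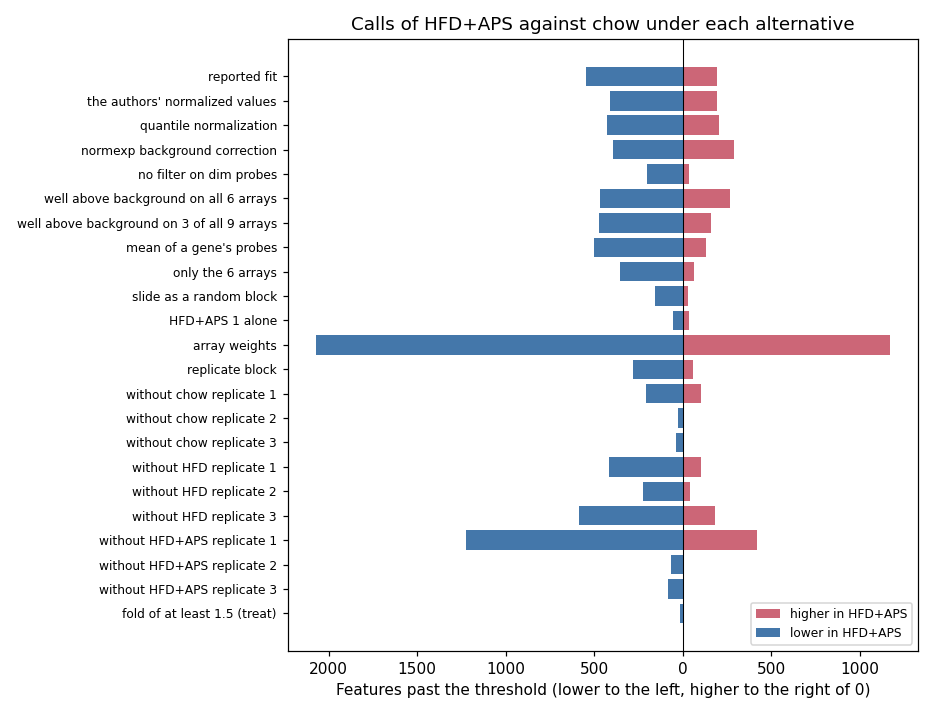
Number of features past the threshold in HFD+APS against chow (horizontal axis, falls to the left and rises to the right of 0) in the reported fit and under each of 22 alternatives (rows). Rises go from 194 to 4 and falls from 549 to 25 without chow 2, and both grow, to 417 and 1224, without HFD+APS 1.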

How the data were processed

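Total RNA from 9 mouse livers, 3 in each of 3 diet groups, was labelled with Cy3 and put on 1-colour Agilent arrays by the authors. Per the labels' protocols, RNA integrity was checked and a column step with DNase followed. The file headers name Feature Extraction 10.7.1.1, and the submitters' processing notes give 10.7. Per those headers, the deposited processed signal is an intensity for each spot, background-subtracted and detrended, with no scaling from array to array. A deposited series table gives log2 values of the authors, with nearly equal distributions (column medians 4.98 to 4.99) and normalization not given in the sources used here. Limma stands in the submitters' notes, and its role does not.

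Spots with a flag for non-uniformity or outliers were dropped, repeated spots were averaged in log2, and the array's 75th percentile was taken off. A probe entered if well above background on at least 3 of the 6 chow and HFD+APS arrays (26170 of 41174 probes), and the brightest probe stood for each gene, which left 17415 features (5928 with more than 1 probe; 5 missing values). No spot was saturated. Names came from RefSeq (GRCm38.p6): 27668 probes matched by their own accession, 85 by another, 5533 by symbol and 460 by synonym, and 7428 kept the file's name (3429 features tested). Positions are those of the files' mm9 annotation, and exon or intron was not determined. The 3 groups were fitted together in limma 3.58.1 (R 4.3.3; lmFit, eBayes, 2-sided; 6 residual and 2.33 prior degrees of freedom), with Benjamini-Hochberg adjustment over all features. "At least N-fold" sets arrays not well above background at the lowest signal called so on that array, and precision is limited by the small number of arrays. The script was tested on simulated data.

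Named genes were up to 12 rises and 12 falls called with each array left out (the largest, not clone-like, groups not overlapping), up to 4 called members of each list, fixed genes of interest, and the 6 leading genes apart from, or between, both other diets. Other list members are named after their values were seen. Results of some genes are not reported here. The 37 lists (689 of 759 genes tested), the members and the genes of interest were chosen with earlier results of these data known, so lists are described by counts and medians without a test. Listed signals were summed on the linear scale and given as log2. Alternatives were the authors' values, quantile normalization, normexp (offset 50), 4 other filters or probe rules, the 6 arrays alone, slide as a random block, HFD+APS 1 alone, array weights, a replicate block, a minimum fold of 1.5, and each array left out.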

Additional observations from a re-analysis of the deposited data

How the results depend on the processing

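All 48 called genes that the naming rule chose kept their direction under every alternative in which they were tested (32 with a filter on all 6 arrays), but 11 of them were detected in 1 group only, which fixes it. For all of them the difference itself was unchanged with no filter or another filter on detection, and with the 6 arrays alone. It was also unchanged with a replicate block, a minimum fold or an HFD array left out. Direction could not turn under these, so they are no check on it. The counts of calls moved. For rises and falls they were 292 and 393 with normexp, 35 and 201 with no filter on dim probes (27342 features tested), 62 and 353 with the 6 arrays alone, 28 and 155 with slide as a random block (correlation 0.113), and 36 and 55 with HFD+APS 1 alone, which is then assumed to vary like the other groups. They were 1169 and 2069 with array weights and 1 and 14 for a fold above 1.5. The following alternatives stayed within 1.5 times of 194 and 549: 192 and 412 with the authors' values, and 207 and 426 with quantile normalization. So did 266 and 465 with detection on all 6 arrays, 162 and 474 with detection on 3 of all 9, and 132 and 500 with the mean of a gene's probes. With 1 array left out, rises ran from 4 (without chow 2) to 417 (without HFD+APS 1) and falls from 25 to 1224. Without chow 3, HFD+APS 2 or HFD+APS 3 there were 7 to 9 rises and 38 to 85 falls. The cause was not tested. Of the 37 detected in both groups 31 were called with the authors' values, 29 with normexp, 18 with the 6 arrays alone, 9 with no filter, 9 with slide as a random block and 1 with HFD+APS 1 alone. Same-numbered arrays of chow and HFD+APS had correlations of their deviations of 0.096, -0.056 and 0.164, so the replicate numbers were not taken to pair animals. A replicate block gave 57 rises and 282 falls and kept 16 of these 37 calls. Probes near background limit the falls: 88 of the 549 had no HFD+APS array well above background.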

Other observations

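Genes outside the lists, named here after their values were seen, included the following. Csad, the enzyme that leads from cysteine to taurine, fell from 5.57, 5.70 and 5.99 in chow to 3.45, 4.45 and 4.21 in HFD+APS (difference -1.71 ± 0.26, limma, adjusted p = 0.018), and HFD was as low at 4.03, 4.06 and 3.66. Probes named for Raet1d and Raet1e, ligands of the NKG2D receptor of natural killer cells, fell by 1.97 and 2.12 on the log2 scale (adjusted p = 0.0139 and 0.0146). Both were also lower in HFD than in chow (-1.02 and -1.19, limma, adjusted p = 0.0433 and 0.0376). The genes are close relatives in sequence. Their probes lie side by side on the plus strand of chromosome 10 (22091319 to 22091378 and 22091401 to 22092018 in mm9). Neither was named by its own accession. The 2 falls are therefore not read as separate, and whether the probes tell the genes apart was not tested. Gpcpd1, which cleaves glycerophosphocholine, rose from 1.87, 2.64 and 2.95 to 4.65, 3.76 and 4.43 (difference 1.80 ± 0.30, adjusted p = 0.0256), with HFD at 3.07 to 3.18.

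Slc22a7, an organic anion transporter, rose by 1.36 ± 0.25 (limma, adjusted p = 0.0321), and Cav1, the coat protein of caveolae, by 1.99 ± 0.40 (adjusted p = 0.0374), where a second Cav1 probe gave 0.38. In HFD, Slc22a7 stood at 3.54 ± 0.36 (chow 1.82, HFD+APS 3.18) and Cav1 at -0.58 ± 0.64 (chow -0.63, HFD+APS 1.35). Wif1, an inhibitor of Wnt ligands, was well above background on no chow array and on all HFD+APS arrays, at least 2.1-fold higher there. It passed the filter only through HFD+APS, so this is a description without a test. Leaving out chow 3 ended the calls of the other 6 genes, chow 2 those of Csad, Gpcpd1, Slc22a7 and Cav1, HFD+APS 2 those of Raet1d, Raet1e, Slc22a7 and Cav1, HFD+APS 3 those of Csad, Gpcpd1, Slc22a7 and Cav1, HFD 2 those of Slc22a7 and Cav1, and chow 1 that of Slc22a7. The highest adjusted p-values were 0.0829 for Csad, 0.0603 for both Raet1 genes, 0.0934 for Gpcpd1, 0.108 for Slc22a7 and 0.132 for Cav1. With slide as a random block Csad, Raet1d and Raet1e kept their calls and Gpcpd1, Slc22a7 and Cav1 did not.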
